A study of Mus musculus with 8 samples.

Results

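Interferon-stimulated genes are the genes that cells switch on when an interferon binds its receptor, and 39 of them were followed here by name, in the families IFIT, OAS, GBP and IRG and among RNA sensors, antiviral effectors, antigen processing genes, a chemokine and the IRF and STAT factors. Array probes were tied to them through their RefSeq accessions. Of the 39 genes, 37 were measured and tested, among 26460 named genes and unnamed transcripts. No probe matched Mx1 or Mx2, which were not analysed here. Of the 37, 36 were well above background on all 8 arrays, and Oas3 was not well above background on 1 array (sh8, day -2).

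Type I interferons signal through the IFNAR receptor and the kinases JAK1 and TYK2 to ISGF3, a complex holding STAT2 and IRF9 that binds the interferon-stimulated response element (ISRE) in promoters. Interferon gamma acts through a different element, the gamma-activated sequence (GAS). Fibroblast-like cells, preadipocytes among them, keep a low tonic output of these genes without infection, and glucocorticoids such as dexamethasone are known to restrain several of them.

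The data are RNA levels in 3T3-L1 cells, a mouse preadipocyte line that becomes fat cells after a hormone mix, on 8 one-colour Agilent arrays. The WT group is the unmodified line, and the sh8 group is 1 stable line carrying shRNA-8, a short hairpin against the long noncoding RNA slincRAD. Each line was sampled at day -2 (growing), day 0 (confluent), day +2 and day +4, with 1 array for each line and day and no replicate. The mix given at day 0 held 0.5 mM isobutylmethylxanthine, 1 µM dexamethasone and 167 nM insulin, and serum was 10% for all groups. Days +2 and +4 of both lines thus came after dexamethasone was given, and days -2 and 0 before. The level of slincRAD itself was not checked here, and a line with another hairpin was not analysed here, so shRNA-8 and the carrying of any hairpin cannot be told apart. Nothing in the labels says that arrays come from separate cultures, so p-values measure how a difference varied between days or lines, which may be partly technical.

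A level is the log2 intensity of a probe minus the 75th percentile of its array, with 0 at that percentile and 1 unit for each doubling. Levels are compared between arrays and never between genes. The 75th percentile intensity ran from 759.9 to 1239, and 64.9% to 68.5% of probes were well above background on the arrays of days -2 and 0, against 72.4% to 81.7% on those of days +2 and +4. The arrays of days -2 and 0 share 1 slide and those of days +2 and +4 another, so the period after induction and the slide cannot be told apart. Markers of fat cells were measured as a check of the labels, and 7 of 8 were higher after induction and 0 lower. Over all genes and transcripts tested, 26.8% were higher after induction and 9.54% lower, and the marker counts that follow stand beside the same shares. On the second slide 9 of 9 measured lung epithelium markers were higher, their summed level running from -1.39 to -0.67 before induction and from 2.93 to 3.55 after. Sftpc, Napsa and Slc34a2 were well above background on 0 of 4 arrays before and 4 of 4 after. Of 9 macrophage and leukocyte markers 5 were higher and 2 lower, with Lyz2, Laptm5 and Tyrobp above background on 0 of 4 arrays before and 4 of 4 after, and a summed level of 2.45 to 2.93 before and 2.40 to 3.06 after. Of 5 endothelial markers 3 were higher (Cdh5, Tek and Cldn5, at 0 of 4 arrays before), and the summed level was 0.04 to 0.93 before and 0.34 to 0.88 after. A summed level adds the intensities of a list, so its brightest probes weigh most and it can stay level while dim markers rise. Itgam ran from 1.78 to 2.28 before and from 1.64 to 2.38 after. Kdr ran from -0.41 to 0.50 before and from -0.33 to 0.09 after. By contrast, Tyrobp ran from -7.74 to -6.44 before and from -3.74 to -2.82 after. The part of these cell types in the changes below was not tested.

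RefSeq promoter sequences (build GRCm38.p6) were matched to 31 of the 39 genes, and the 250 bases before each start were searched. The ISRE was searched as GAAANNGAAA and the GAS as TTCNNNGAA, on both strands. They can overlap, as can neighbouring copies of the ISRE. An ISRE was found for 15 of the 31 genes (48.4%), against 3.46% of all 27025 genes with a promoter of that length, and a GAS for 8 of the 31 (25.8%), against 8.13%. Counted by promoter, the shares over all 32851 promoters were 2.98% and 7.02%. Shown here are the 200 bases before the start of Ifit1 (chr19:34640689-34640888, plus strand), Ifit3 (chr19:34583329-34583528, plus), Ifit3b (chr19:34607757-34607956, plus), Isg15 (chr4:156200819-156201018, minus), Irgm1 (chr11:48871421-48871620, minus), Oas1a (chr5:120907526-120907725, minus) and Irf1 (chr11:53769814-53770013, plus). The first 6 are from genes with several ISRE copies and a lower level after induction, and Irf1 is shown as a gene with a GAS alone whose level did not pass the test. Capitals mark ISRE and GAS matches, the latter in Oas1a (the match farthest from the start) and Irf1.
Ifit1: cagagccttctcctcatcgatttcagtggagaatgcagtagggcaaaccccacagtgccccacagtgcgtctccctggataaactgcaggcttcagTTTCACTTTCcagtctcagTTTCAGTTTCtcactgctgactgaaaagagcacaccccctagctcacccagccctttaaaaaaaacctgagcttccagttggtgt
Ifit3: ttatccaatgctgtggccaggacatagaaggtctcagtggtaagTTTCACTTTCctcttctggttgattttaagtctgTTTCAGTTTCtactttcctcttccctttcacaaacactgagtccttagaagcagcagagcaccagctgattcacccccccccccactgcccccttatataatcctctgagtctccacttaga
Ifit3b: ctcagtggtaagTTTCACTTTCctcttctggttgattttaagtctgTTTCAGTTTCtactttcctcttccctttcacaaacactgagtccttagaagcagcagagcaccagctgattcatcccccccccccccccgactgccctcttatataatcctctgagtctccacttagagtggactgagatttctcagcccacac
Isg15: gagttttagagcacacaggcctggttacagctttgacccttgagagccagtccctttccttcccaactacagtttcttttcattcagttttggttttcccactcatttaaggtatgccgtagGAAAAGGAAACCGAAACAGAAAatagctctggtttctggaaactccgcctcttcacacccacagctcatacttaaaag
Irgm1: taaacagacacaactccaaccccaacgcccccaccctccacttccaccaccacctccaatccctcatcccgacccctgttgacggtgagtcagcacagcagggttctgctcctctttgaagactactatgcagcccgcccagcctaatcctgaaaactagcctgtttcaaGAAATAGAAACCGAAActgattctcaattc
Oas1a: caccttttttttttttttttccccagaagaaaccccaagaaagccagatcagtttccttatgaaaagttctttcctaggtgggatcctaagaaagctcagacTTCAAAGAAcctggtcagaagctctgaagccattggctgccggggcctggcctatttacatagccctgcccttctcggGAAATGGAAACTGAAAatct
Irf1: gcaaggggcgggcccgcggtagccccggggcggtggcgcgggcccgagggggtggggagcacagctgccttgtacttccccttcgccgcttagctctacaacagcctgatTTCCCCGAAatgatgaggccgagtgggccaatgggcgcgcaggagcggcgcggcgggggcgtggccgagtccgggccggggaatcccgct
In Ifit1, Ifit3 and Ifit3b the match lies on the other strand, as TTTCNNTTTC. Ifit3 and Ifit3b carry the same pair of matches, at 156 and 122 bases before the start in Ifit3 and at 188 and 154 in Ifit3b, and are close copies of each other. A match is a run of letters and does not show that a factor binds there.

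Most of the interferon-stimulated genes fell after induction, and a smaller number were lower in sh8 than in WT. Between the days before induction (-2 and 0) and the days after (+2 and +4), 29 of 37 fell and 0 rose (limma, adjusted p under 0.05), where 9.54% of all features fell and 26.8% rose. Their median difference was -1.77, against 0.17 over all features. Between the lines, 17 of 37 were lower in sh8 and 0 higher, where 10.3% of all features were lower and 16.8% higher, with a median of -0.71 against 0.13. In 28 of 37 genes both arrays after induction lay below both arrays before it in each line, as in 11.1% of features, and in 18 of 37 all 4 arrays after lay below all 4 before, as in 5.73%. In RNA of whole cultures, fewer cells expressing a gene and less RNA per cell cannot be told apart.

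**Figure D1:**
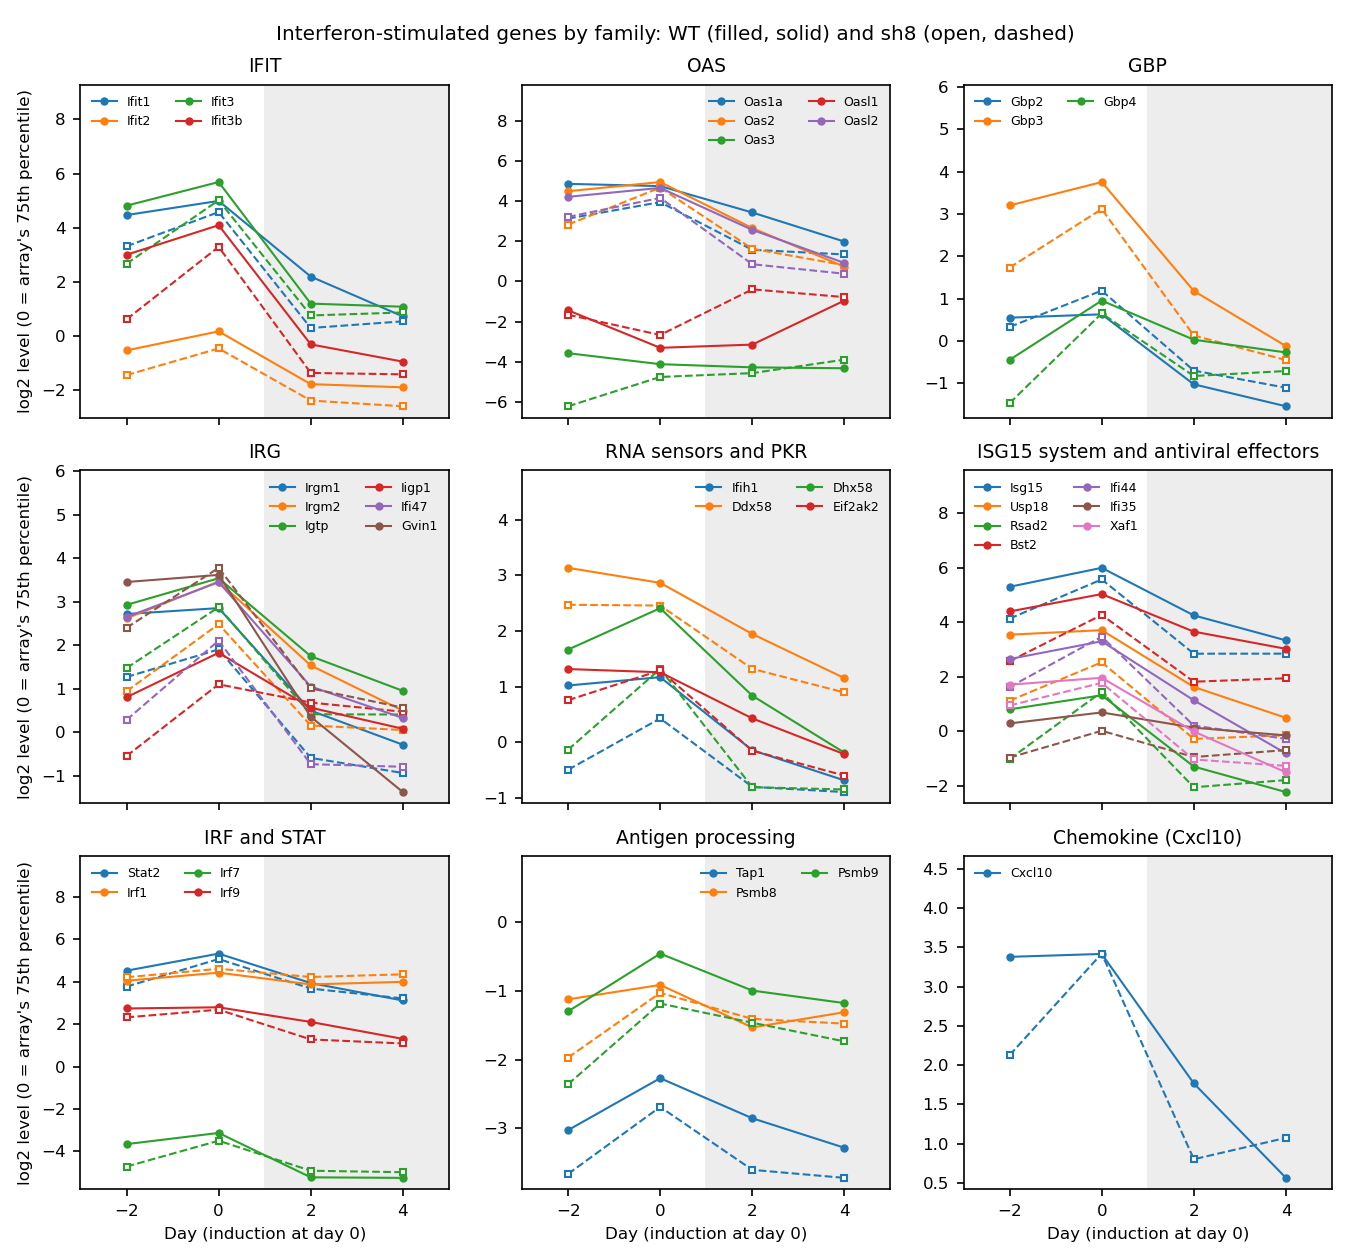
Level of each of the 37 genes (log2, 0 is the array's 75th percentile) against day, in 9 panels by family, with WT as filled circles and solid lines, sh8 as open squares and dashed lines, 1 array per point and no error bars; shading marks the days after induction, on the second slide. Most genes have their highest point at day 0 in both lines (32 of 37) and lie lower at day +2, while Oasl1 and Oas3 do not follow that course.

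The fall was also found in each line taken alone, where slide and period still coincide. With WT arrays alone 13 of 37 fell, where 3.27% of all features fell, and with sh8 arrays alone 5 of 37 fell (Ifit1, Oas1a, Oasl2, Irgm1 and Xaf1), where 0.442% did. Both sets hold Ifit1 and Irgm1. The median difference was -1.85 in WT and -1.61 in sh8. The calls between the lines were lost when 1 array of day 0, +2 or +4 of either line was left out, with 0 of 37 genes called and 0 to 79 features in all, while the median difference of the 37 genes stayed between -0.62 and -0.82. Without either array of day -2, 7 genes were called, as were 4206 features in all, and the median was -0.53. With slide in place of day as a covariate 6 genes were called (Bst2, Ifi35, Ifi47, Irgm1, Oas1a and Usp18), where 19% of all features were called in either direction. Within slide 1, 0 genes were called, as were 0% of features, with a median of -0.79. Within slide 2, 2 genes were called (Bst2 and Ifi47), where 19.5% of features were, with a median of -0.51.

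**Figure D2:**
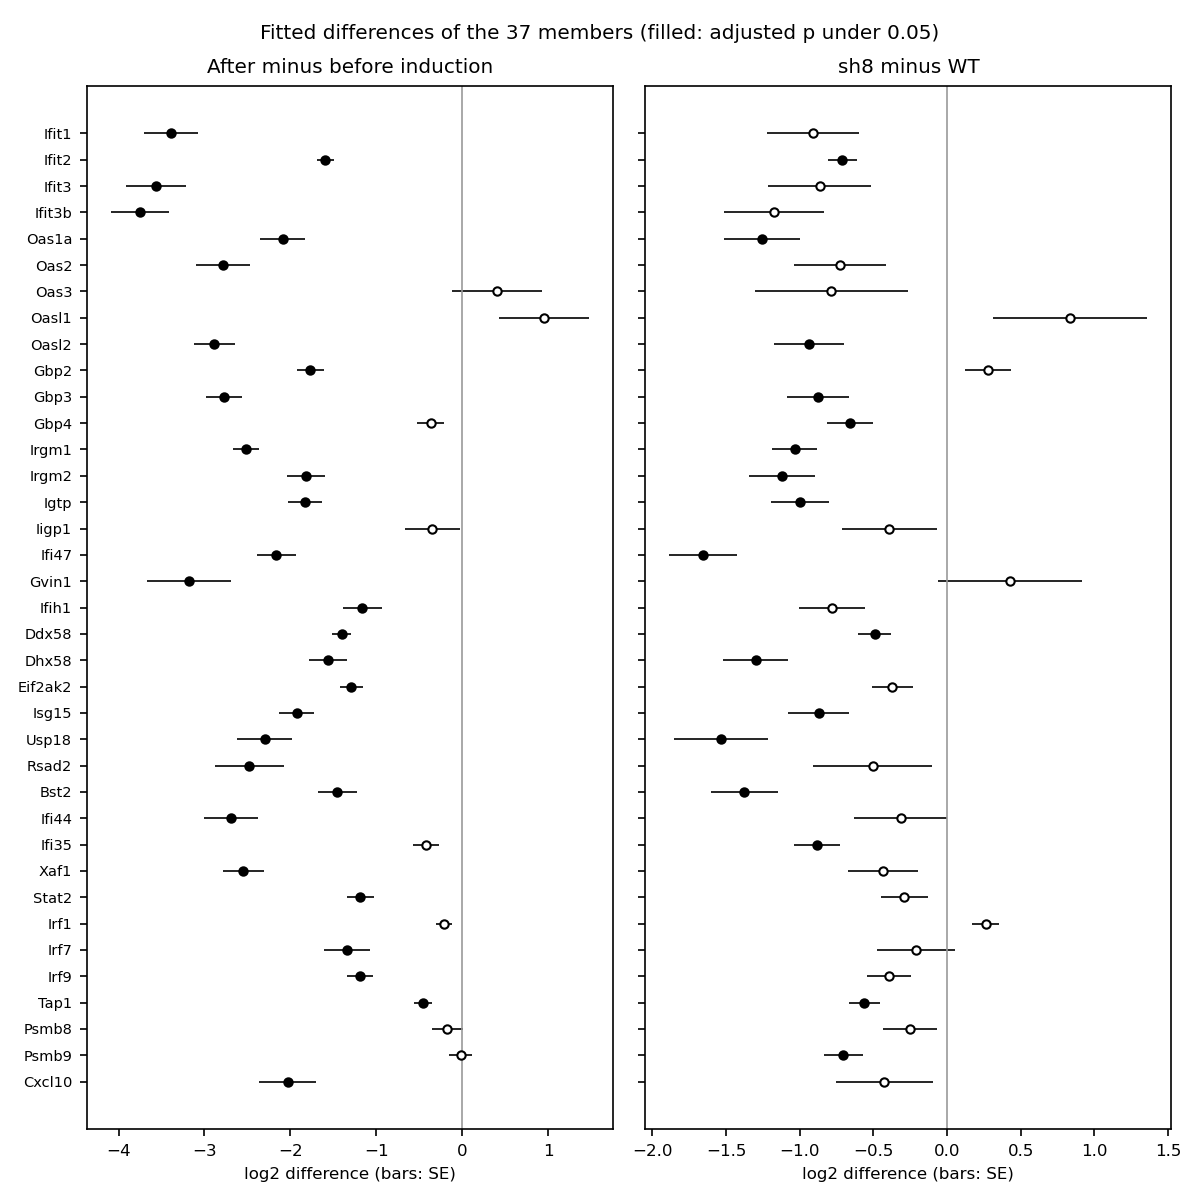
Fitted log2 difference of each of the 37 genes after minus before induction (left) and sh8 minus WT (right), with bars of 1 standard error from limma over 8 arrays; filled points passed adjusted p under 0.05. On the left 35 of 37 points lie below 0 and 29 are filled, and on the right 33 lie below 0 and 17 are filled.

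The IFIT genes encode proteins that bind foreign RNA and block its translation, and all 4 fell after induction, by a family median of 3.48 on the log2 scale. Levels are given here and below in the order of days -2, 0, +2 and +4. Ifit1 measured 4.47, 4.99, 2.20 and 0.73 in WT and 3.32, 4.58, 0.30 and 0.55 in sh8. Ifit3 measured 4.82, 5.69, 1.20 and 1.09 in WT and 2.68, 5.02, 0.77 and 0.88 in sh8. Ifit3b measured 3.01, 4.10, -0.30 and -0.94 in WT and 0.62, 3.30, -1.35 and -1.40 in sh8. For each of these genes the highest array was WT day 0 and the 4 arrays after induction lay below the 4 before, with no overlap. Ifit1 was 10.5-fold lower after induction (log2 difference -3.39 ± 0.31 SE, adjusted p = 0.0032), Ifit3 11.8-fold (-3.56 ± 0.35, adjusted p = 0.0036) and Ifit3b 13.5-fold (-3.75 ± 0.34, adjusted p = 0.0031). Because Ifit3 and Ifit3b are near copies, a probe of either may read both, and their values are uncertain as separate measurements. A second probe of Ifit3b gave -2.76 for the same difference.

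Ifit2 measured -0.52, 0.18, -1.77 and -1.88 in WT and -1.43, -0.45, -2.37 and -2.58 in sh8. It was lower in sh8 on all 4 days by a narrow range, and its arrays after induction did not overlap those before. It fell after induction (-1.59 ± 0.10, adjusted p = 0.0016), and it was the IFIT gene that passed the test between the lines, 1.64-fold lower in sh8 (-0.71 ± 0.10, adjusted p = 0.016). With the probes used, the other IFIT genes also lay below WT on all 4 days, with wider gaps on some days than on others. Their differences were -0.91 ± 0.31 for Ifit1 (adjusted p = 0.089), -0.87 ± 0.35 for Ifit3 (adjusted p = 0.12) and -1.18 ± 0.34 for Ifit3b (adjusted p = 0.059). The second probe of Ifit3b lay above WT at day +2 (0.48) and below it at days -2, 0 and +4 (-2.78, -1.07 and -0.14).

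The OAS genes encode enzymes that sense double-stranded RNA and make the 2-5A signal for RNase L, and related proteins without that activity. Oas1a measured 4.87, 4.76, 3.44 and 1.99 in WT and 3.14, 3.96, 1.58 and 1.35 in sh8. Oas2 measured 4.50, 4.96, 2.66 and 0.74 in WT and 2.84, 4.68, 1.63 and 0.81 in sh8. Oasl2, which encodes an OAS-like protein, measured 4.22, 4.67, 2.57 and 0.92 in WT and 3.22, 4.17, 0.86 and 0.39 in sh8. In WT these genes went down in steps over days 0, +2 and +4, and in sh8 most of the way by day +2. All of them fell: Oasl2 7.38-fold (-2.88 ± 0.24, adjusted p = 0.0025), Oas2 6.89-fold (-2.78 ± 0.31, adjusted p = 0.0047) and Oas1a 4.26-fold (-2.09 ± 0.26, adjusted p = 0.0058). The arrays of the periods did not overlap for Oasl2 and Oas2, and did for Oas1a, whose WT day +2 array lay above the sh8 array of day -2. Between the lines, Oas1a was 2.39-fold lower in sh8 (-1.26 ± 0.26, adjusted p = 0.029) and Oasl2 1.91-fold (-0.94 ± 0.24, adjusted p = 0.044, and 0.059 to 0.065 under quantile scaling, the authors' values or no filter on dim probes), while Oas2 gave -0.72 ± 0.31 (adjusted p = 0.14).

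The other OAS genes took another course. Oas3 measured -3.58, -4.12, -4.28 and -4.33 in WT and -6.22, -4.76, -4.57 and -3.90 in sh8. It was dim, and its sh8 value of day -2 was not well above background. It was lower after induction in WT (-0.45) and higher in sh8 (1.26), with a fitted difference of 0.40 ± 0.52 (adjusted p = 0.58). Oasl1, another OAS-like gene, measured -1.44, -3.31, -3.15 and -0.95 in WT and -1.66, -2.67, -0.39 and -0.78 in sh8. Its lowest level in each line was at day 0, where most of the other genes were highest. It did not pass the test after induction (0.95 ± 0.52, adjusted p = 0.21) or between the lines (0.84 ± 0.52, adjusted p = 0.27).

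The guanylate-binding proteins (GBP) are large GTPases that attack the vacuoles of intracellular microbes and respond strongly to interferon gamma. Gbp3 measured 3.20, 3.76, 1.18 and -0.12 in WT and 1.73, 3.12, 0.13 and -0.45 in sh8. Gbp2 measured 0.55, 0.63, -1.03 and -1.55 in WT and 0.33, 1.19, -0.70 and -1.11 in sh8. Gbp4 measured -0.45, 0.95, 0.03 and -0.27 in WT and -1.47, 0.65, -0.83 and -0.71 in sh8. Gbp3 and Gbp2 had no overlap between periods, and Gbp4 was highest at day 0 in each line. After induction Gbp3 fell 6.82-fold (-2.77 ± 0.21, adjusted p = 0.0022) and Gbp2 3.41-fold (-1.77 ± 0.16, adjusted p = 0.0030), and Gbp4 gave -0.37 ± 0.16 (adjusted p = 0.13). Between the lines, Gbp3 (-0.87 ± 0.21, adjusted p = 0.040) and Gbp4 (-0.66 ± 0.16, adjusted p = 0.040) were lower in sh8, calls lost under quantile scaling, the authors' values or no filter on dim probes (adjusted p from 0.050 to 0.055). Gbp2 was above WT on 3 of 4 days (0.28 ± 0.16, adjusted p = 0.24).

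The IRG genes encode immunity-related GTPases that act on vacuoles and autophagy, and Gvin1 is a very large GTPase grouped with them here. Irgm1 measured 2.72, 2.85, 0.50 and -0.29 in WT and 1.27, 1.90, -0.59 and -0.94 in sh8. Ifi47 measured 2.65, 3.45, 1.05 and 0.33 in WT and 0.28, 2.11, -0.74 and -0.80 in sh8. Igtp measured 2.93, 3.54, 1.75 and 0.95 in WT and 1.47, 2.88, 0.41 and 0.41 in sh8. All of them were lower in sh8 on each of the 4 days, and Irgm1 alone among them had no overlap between the periods. After induction Irgm1 fell 5.73-fold (-2.52 ± 0.15, adjusted p = 0.0015), Ifi47 4.47-fold (-2.16 ± 0.23, adjusted p = 0.0041) and Igtp 3.55-fold (-1.83 ± 0.20, adjusted p = 0.0043). Between the lines Ifi47 had the most negative difference of the 37 genes with the probes used, 3.15-fold lower in sh8 (-1.66 ± 0.23, adjusted p = 0.016). A second probe of Iigp1 gave -1.78. Irgm1 was 2.05-fold lower (-1.03 ± 0.15, adjusted p = 0.017), and Irgm2 (-1.12 ± 0.22, adjusted p = 0.028) and Igtp (-0.9997 ± 0.20, adjusted p = 0.027) were lower too.

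Gvin1 measured 3.45, 3.62, 0.36 and -1.38 in WT and 2.40, 3.78, 1.01 and 0.56 in sh8. It fell 9.04-fold after induction (-3.18 ± 0.49, adjusted p = 0.0099), with no overlap, and by more in WT (-4.05) than in sh8 (-2.31). It was the IRG gene above WT in the fit between the lines (0.43 ± 0.49, adjusted p = 0.53), being below WT at day -2 and above it on the other 3 days. A second probe of Gvin1 gave -1.81 after minus before. Iigp1 measured 0.80, 1.83, 0.56 and 0.08 in WT and -0.55, 1.101, 0.68 and 0.47 in sh8, and it passed the test neither after induction (-0.35 ± 0.32, adjusted p = 0.43) nor between the lines (-0.39 ± 0.32, adjusted p = 0.39). Its second probe was lower in sh8 on all 4 days, by -2.88, -1.28, -1.89 and -1.07, so the probes disagree on the gap between the lines.

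Among the sensors of viral RNA, Ddx58 encodes RIG-I, Ifih1 encodes MDA5, Dhx58 encodes their regulator LGP2, and Eif2ak2 encodes the kinase PKR, which stops translation. Ddx58 measured 3.13, 2.86, 1.94 and 1.15 in WT and 2.47, 2.46, 1.32 and 0.89 in sh8. Dhx58 measured 1.66, 2.41, 0.84 and -0.19 in WT and -0.13, 1.32, -0.81 and -0.85 in sh8. Eif2ak2 measured 1.31, 1.26, 0.43 and -0.22 in WT and 0.75, 1.29, -0.15 and -0.60 in sh8. Ddx58 and Eif2ak2 had no overlap between the periods. Eif2ak2 was higher at day 0 than at day -2 in sh8 and not in WT, whereas Dhx58 was higher at day 0 than at day -2 in both lines. All 4 sensors fell after induction: Dhx58 2.96-fold (-1.57 ± 0.22, adjusted p = 0.0078), Ddx58 2.64-fold (-1.40 ± 0.11, adjusted p = 0.0024), Eif2ak2 2.44-fold (-1.29 ± 0.14, adjusted p = 0.0042) and Ifih1 2.24-fold (-1.16 ± 0.23, adjusted p = 0.018). The call of Ifih1 was lost without either WT or sh8 at day 0 or day +2 and without WT at day +4 (adjusted p from 0.055 to 0.066). Dhx58 was 2.46-fold lower in sh8 (-1.30 ± 0.22, adjusted p = 0.021) and Ddx58 1.40-fold (-0.49 ± 0.11, adjusted p = 0.036). The call of Ddx58 was lost under quantile scaling, the authors' values or no filter on dim probes (adjusted p from 0.054 to 0.072) and with the mean of its probes (-0.14, adjusted p = 0.46). A second probe of Ddx58 gave 0.21 for sh8 minus WT, against -0.49, so that difference changes sign with the probe.

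The ISG15 system and the antiviral effectors held 7 measured genes, of which 6 fell after induction. Isg15, which encodes a ubiquitin-like protein, measured 5.30, 5.99, 4.25 and 3.34 in WT and 4.13, 5.57, 2.85 and 2.85 in sh8. Xaf1, which encodes an antagonist of the apoptosis inhibitor XIAP, measured 1.71, 1.97, -0.0011 and -1.50 in WT and 0.95, 1.78, -1.03 and -1.26 in sh8. Ifi44 measured 2.65, 3.30, 1.14 and -0.80 in WT and 1.63, 3.47, 0.22 and -0.27 in sh8. Xaf1 and Ifi44 had no overlap between the periods, and the WT day +2 level of Isg15 lay just above the sh8 level of day -2. After induction Ifi44 fell 6.47-fold (-2.69 ± 0.32, adjusted p = 0.0051), Xaf1 5.86-fold (-2.55 ± 0.24, adjusted p = 0.0032) and Isg15 3.80-fold (-1.93 ± 0.21, adjusted p = 0.0042). Rsad2, the viperin gene, fell 5.57-fold (-2.48 ± 0.40, adjusted p = 0.011), with levels from -1.01 to 1.45 before and from -2.22 to -1.29 after. Ifi35 gave -0.42 ± 0.15 (adjusted p = 0.090).

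The widest gaps between the lines among the effectors were in Usp18 and Bst2, picked out after their values were seen. Usp18, the protease that removes ISG15 and damps the type I interferon receptor, measured 3.54, 3.71, 1.63 and 0.50 in WT and 1.13, 2.53, -0.27 and -0.14 in sh8. Bst2, or tetherin, which holds budding virus at the cell surface, measured 4.40, 5.03, 3.66 and 3.03 in WT and 2.57, 4.27, 1.82 and 1.95 in sh8. Both were lower in sh8 on all 4 days. Usp18 was 2.90-fold lower in sh8 (-1.53 ± 0.32, adjusted p = 0.029) and Bst2 2.59-fold (-1.38 ± 0.23, adjusted p = 0.020), and after induction they fell 4.92-fold (-2.30 ± 0.32, adjusted p = 0.0075) and 2.74-fold (-1.45 ± 0.23, adjusted p = 0.010). Isg15 (-0.87 ± 0.21, adjusted p = 0.040) and Ifi35 (-0.88 ± 0.15, adjusted p = 0.023) were lower in sh8 too. The call of Isg15 was lost under quantile scaling, the authors' values or no filter on dim probes (adjusted p from 0.054 to 0.064). Rsad2, Ifi44 and Xaf1 gave -0.50, -0.31 and -0.43 with adjusted p from 0.22 to 0.48. A second probe of Xaf1 gave 0.33 for sh8 minus WT, so its sign depends on the probe.

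Cxcl10 encodes a chemokine that draws activated T cells. It measured 3.38, 3.42, 1.77 and 0.57 in WT and 2.13, 3.42, 0.80 and 1.08 in sh8. The lines were level at day 0, and sh8 lay below WT at days -2 and +2 and above it at day +4. Cxcl10 fell 4.09-fold after induction (-2.03 ± 0.33, adjusted p = 0.011), with no overlap, and sh8 minus WT was -0.43 ± 0.33 (adjusted p = 0.36).

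Genes of antigen processing had the family median closest to 0 after minus before induction, -0.17. Tap1 encodes a subunit of the transporter that loads peptides for class I presentation, and Psmb8 and Psmb9 encode immunoproteasome subunits. Tap1 measured -3.03, -2.27, -2.86 and -3.29 in WT and -3.67, -2.69, -3.61 and -3.72 in sh8. Psmb9 measured -1.30, -0.46, -0.995 and -1.18 in WT and -2.36, -1.18, -1.46 and -1.74 in sh8. Psmb8 measured -1.12, -0.91, -1.53 and -1.31 in WT and -1.97, -1.03, -1.41 and -1.48 in sh8. All of them were highest at day 0 in each line, and their levels after induction overlapped those of day -2. Tap1 passed the test after induction (-0.45 ± 0.10, adjusted p = 0.028), being 1.37-fold lower. That call was lost with normexp, another background correction (-0.21, adjusted p = 0.070) and without each array in turn other than WT at day +2 (adjusted p from 0.066 to 0.11). Psmb8 gave -0.17 ± 0.18 (adjusted p = 0.49) and Psmb9 -0.02 ± 0.13 (adjusted p = 0.93). Between the lines, Psmb9 (-0.70 ± 0.13, adjusted p = 0.025) and Tap1 (-0.56 ± 0.10, adjusted p = 0.025) were lower in sh8 on all 4 days, and Psmb8 gave -0.25 ± 0.18 (adjusted p = 0.34).

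The IRF and STAT genes encode the factors that drive the others: STAT2 and IRF9 are parts of ISGF3, IRF7 amplifies interferon production and IRF1 acts downstream of interferon gamma. Stat2 measured 4.52, 5.32, 3.94 and 3.11 in WT and 3.77, 5.07, 3.68 and 3.21 in sh8. Irf9 measured 2.74, 2.79, 2.10 and 1.30 in WT and 2.32, 2.68, 1.28 and 1.09 in sh8. Irf7 measured -3.66, -3.13, -5.22 and -5.25 in WT and -4.71, -3.49, -4.91 and -4.98 in sh8. The periods did not overlap for Irf9 and Irf7, and the WT day +2 level of Stat2 lay above the sh8 level of day -2. After induction Stat2 fell 2.27-fold (-1.19 ± 0.16, adjusted p = 0.0071), Irf9 2.28-fold (-1.19 ± 0.15, adjusted p = 0.0059) and Irf7 2.53-fold (-1.34 ± 0.26, adjusted p = 0.019). The call of Irf7 was lost without WT at day 0, +2 or +4 and without sh8 at day 0 (adjusted p from 0.056 to 0.072). Irf7 was dim, though well above background on all 8 arrays. Its difference ran from -1.84 to -0.40 over the alternatives and the lines taken alone, so its fold is uncertain.

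Irf1 measured 4.05, 4.43, 3.87 and 3.99 in WT and 4.21, 4.61, 4.22 and 4.35 in sh8. It spanned less than 1 log2 unit over all 8 arrays and passed the test neither after induction (-0.21 ± 0.09, adjusted p = 0.13) nor between the lines, where it was above WT on all 4 days (0.26 ± 0.09, adjusted p = 0.093). A second, dim probe of Irf1, well above background on 2 arrays, gave 0.42 after minus before. None of the 4 IRF and STAT genes passed the test between the lines (limma, adjusted p from 0.093 to 0.57; at an unadjusted p under 0.05 there were Irf1 and Irf9, the former higher and the latter lower in sh8). Read against the promoters, 14 of 15 genes with an ISRE match in the 250 bases searched fell after induction (median -2.03). Of those with no match there, 11 of 16 fell (median -1.24), where 9.54% of all features fell. A gene with no match there may hold an ISRE elsewhere or in other letters. The difference between these sets was not tested.

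By single steps, levels were mostly higher at day 0 than at day -2 and lower at day +2 than at day 0, and the middle step was the one with calls. From day -2 to day 0, 0 of 37 genes passed in limma, as 0% of all features did, and 20 of 37 were higher at an unadjusted p under 0.05, where 15.2% of features were, and 0 lower, where 10.2% were. The median difference was 0.87, against 0.08 over all features, and day 0 lay above day -2 in both lines for 32 of 37 genes, as for 44.1% of features. Gbp4 (1.76 ± 0.22, adjusted p = 0.061), Rsad2 (1.49 ± 0.57, adjusted p = 0.20) and Ifit3b (1.88 ± 0.48, adjusted p = 0.11) had some of the larger values, and were picked out for that. The step was larger in sh8 than in WT for all 37 genes, as for 47.3% of features, with medians of 1.29 and 0.51. Day 0 was the highest day of both lines for 32 of 37 genes, a count not made over all features.

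From day 0 to day +2, 27 of 37 genes fell and 0 rose (limma), where 2.89% of all features fell and 9% rose, and the median difference was -1.91. At an unadjusted p under 0.05, 32 of 37 were lower, where 9.75% of features were. Ifit3b (-4.52 ± 0.48, adjusted p = 0.013), Ifit3 (-4.37 ± 0.49, adjusted p = 0.015) and Ifit1 (-3.53 ± 0.44, adjusted p = 0.018) led. The count was 0 without any 1 of the 4 arrays of days 0 and +2, where 0 to 95 features were called in all and the median of the 37 genes ran from -1.81 to -2.22. It was 14 without either array of day +4, where 1043 features were called, against 3146 with all arrays, and the median was -1.91. The median step was -1.66 in WT and -2.33 in sh8, and this step crosses the slides.

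From day +2 to day +4, 0 of 37 genes passed (0% of all features), and 8 were lower at an unadjusted p under 0.05 (Oas2, Oasl2, Gbp3, Irgm1, Ddx58, Eif2ak2, Ifi44 and Stat2), where 1.64% of features were. Day +4 lay below day +2 in both lines for 24 of 37 genes, as for 22.6% of features. The step was lower in WT than in sh8 for 32 of 37, as for 47.6%, with medians of -0.79 in WT and -0.10 in sh8. Taken singly, day +4 lay below day +2 for 34 of 37 genes in WT and 26 in sh8, where the median step over all features was 0.07 in WT and 0.06 in sh8. These counts by single line were not made over all features.

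**Figure D3:**
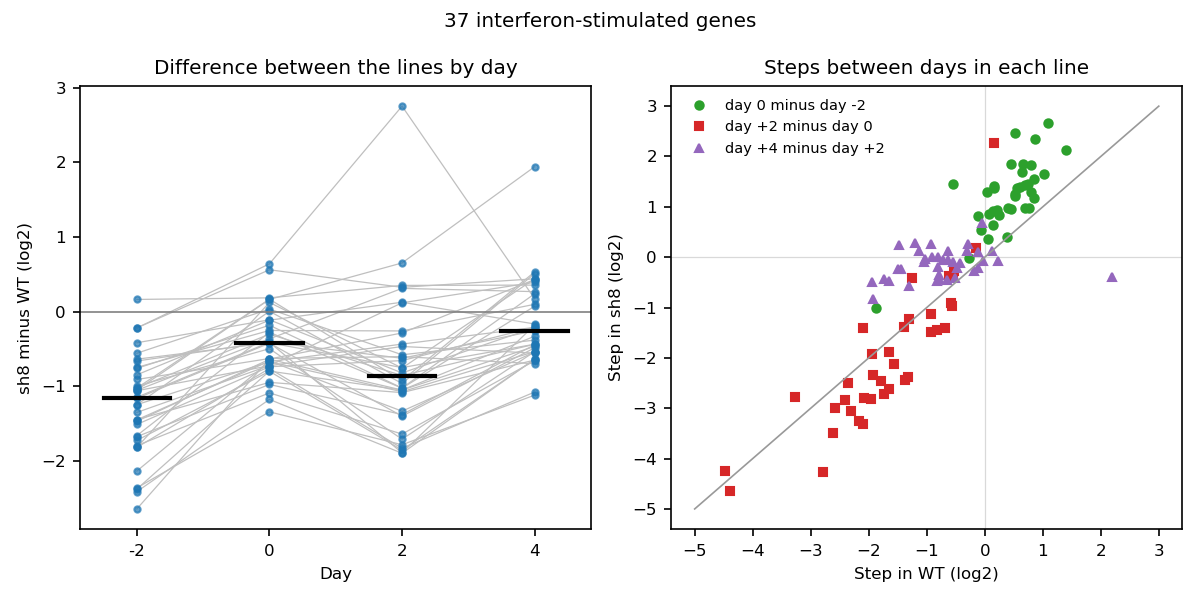
Left, sh8 minus WT (log2) of each of the 37 genes on each day, 1 pair of arrays a day, with grey lines joining a gene and black bars at the medians; right, the step between neighbouring days in sh8 against the same step in WT, with the line of equal steps. The medians on the left are -1.17, -0.42, -0.86 and -0.26, and on the right all 37 circles (day 0 minus day -2) lie above the line of equal steps.

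Day by day, sh8 lay below WT for 36 of 37 genes at day -2, 29 at day 0, 30 at day +2 and 24 at day +4. The median gaps were -1.17, -0.42, -0.86 and -0.26, against 0.10, 0.08, 0.15 and 0.16 over all features. Irf1 was the gene above WT at day -2. In either direction, the gap was at its widest at day -2 for 24 of 37 genes and at day +2 for 9, all with sh8 below WT. For Gbp2 (day 0, 0.56), Oasl1 (day +2, 2.76), Gvin1 (day +4, 1.94) and Irf1 (day +4, 0.35) it was widest with sh8 above WT. At day -2 sh8 lay 1 log2 unit or more below WT for 26 genes, and at day +4 for 2 (Ifi47 and Bst2). The counts by single day given here were not made over all features. Over the 4 days, 22 of 37 genes lay below WT on each day, as 20.4% of all features did. Single days have 1 array a line and no test. Beside this, sh8 had higher levels of 5 of 9 markers of macrophages and leukocytes and a lower level of 0. Their summed level ran from 2.80 to 3.06 in sh8 and from 2.40 to 2.62 in WT. Of 8 fat cell markers, 3 were lower in sh8 and 0 higher. Over all features, 16.8% were higher in sh8 and 10.3% lower. The part of these cell types in the gap was not tested.

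Whether the change after induction differed between the lines was asked with an interaction term, which called 0 of 37 genes (limma, 0% of all features). At an unadjusted p under 0.05, Iigp1 and Irf7 had a higher change in sh8, where 11.9% of features did, and 0 genes had a lower one, where 7.95% did. The change of Iigp1 was 0.30 in sh8 and -0.99 in WT, and that of Irf7 was -0.84 in sh8 and -1.84 in WT. The median over the 37 genes was 0.33. In simulated data this term recovered 0% of changes of 2 log2 units, so an absence of calls carries little.

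Among 57 further interferon-stimulated genes, 53 were tested. After induction 31 fell and 4 rose, where 9.54% of all features fell and 26.8% rose, with a median of -0.84. Parp12 (-1.73 ± 0.12, adjusted p = 0.0018), Zbp1, a sensor of Z-form nucleic acid (-1.88 ± 0.15, adjusted p = 0.0024), Parp9 (-1.52 ± 0.13, adjusted p = 0.0026) and Dtx3l, the partner of Parp9 (-1.52 ± 0.13, adjusted p = 0.0026), had the lowest p. Between the lines 16 were lower in sh8 and 2 higher, where 10.3% of all features were lower and 16.8% higher, with a median of -0.33. There Psmb10, an immunoproteasome subunit (-0.86 ± 0.09, adjusted p = 0.012), Parp9 (-1.20 ± 0.13, adjusted p = 0.012), Nmi (-0.84 ± 0.09, adjusted p = 0.012) and Gbp9 (-0.87 ± 0.10, adjusted p = 0.012) led.

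Of the genes upstream of them (interferons, receptors, kinases, sensors and inhibitors), 30 were tested. After induction 7 rose and 4 fell, where 26.8% and 9.54% of all features did, and in sh8 3 were higher and 5 lower, where 16.8% and 10.3% were. These shares lie near those of all features. After induction Tlr3, the endosomal sensor of double-stranded RNA, fell (-2.02 ± 0.20, adjusted p = 0.0037), as did Sting1, the adaptor of cytosolic DNA sensing (-1.07 ± 0.15, adjusted p = 0.0073). Socs3, an inhibitor of JAK signalling, rose (0.89 ± 0.11, adjusted p = 0.0056). Ifnlr1, a subunit of the interferon lambda receptor, was well above background on 0 of 4 arrays before induction and 3 of 4 after (limma, adjusted p = 0.0027), so the size of its rise is uncertain. Its mean level after was 1.21-fold above the mean of the lowest levels well above background on the arrays before. That is not a strict bound, since probes not well above background can also lie above those levels. Between the lines Irf5 (0.58 ± 0.09, adjusted p = 0.019), Socs3 (0.56 ± 0.11, adjusted p = 0.026) and Pias1, another inhibitor (0.70 ± 0.14, adjusted p = 0.027), were higher in sh8, and the kinase gene Ikbke was lower (-0.71 ± 0.13, adjusted p = 0.026).

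Ifnb1, the interferon beta gene, is given as well, picked out after its values were seen. Ifnb1 measured -3.88, -3.84, -5.79 and -4.10 in WT and -8.06, -3.60, -7.99 and -7.47 in sh8. It was well above background on all 4 WT arrays and, of the sh8 arrays, at day 0 alone, and sh8 minus WT did not pass the test (-2.38 ± 0.76, adjusted p = 0.074).

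The mix holds dexamethasone, and genes known to respond to glucocorticoids moved the other way. Of 15 tested, 11 rose after induction and 0 fell, where 26.8% of all features rose and 9.54% fell. Among those that rose were Tsc22d3 (GILZ, 2.43 ± 0.12, adjusted p = 0.0010), Fkbp5 (2.84 ± 0.17, adjusted p = 0.0014), Errfi1 (2.71 ± 0.21, adjusted p = 0.0022) and Nfkbia, the inhibitor of NF-kappaB (0.89 ± 0.10, adjusted p = 0.0046). The median level of these 15 genes ran from 2.82 to 3.10 before and from 4.51 to 4.94 after induction, while that of the 37 interferon-stimulated genes ran from 0.95 to 2.86 before and from -0.45 to 0.84 after. The part of dexamethasone, of the other agents of the mix and of the slide in the fall cannot be told apart in this design.

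**Figure D4:**
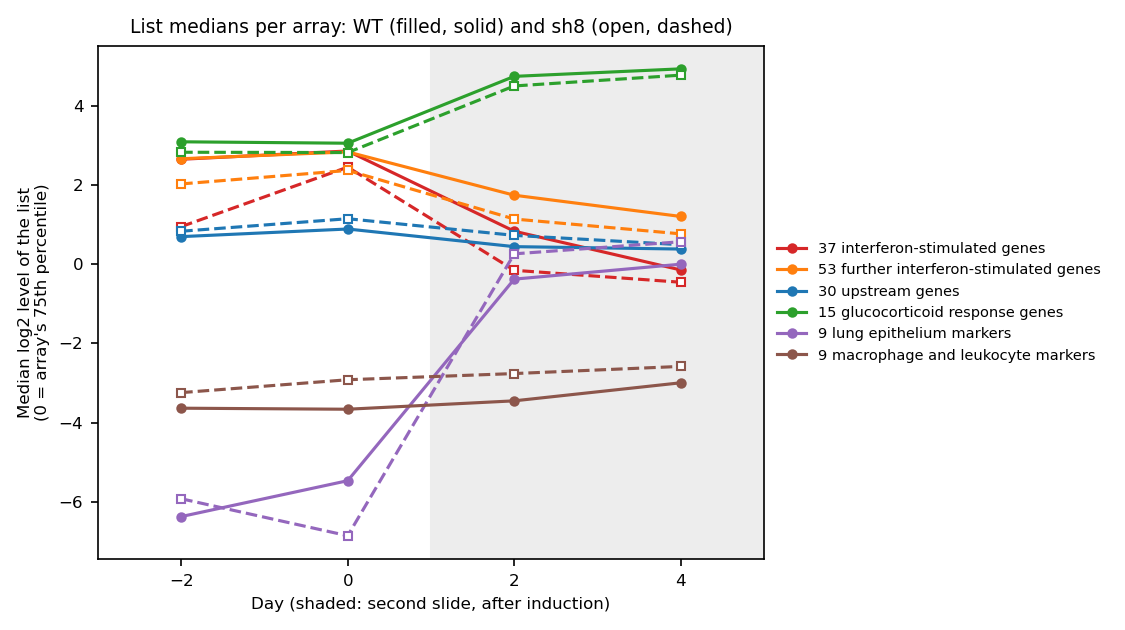
Median level of 6 gene lists (log2, 0 is the array's 75th percentile) on each array against day, with WT filled and solid, sh8 open and dashed, no error bars, and shading over the days after induction, on the second slide. The median of the interferon-stimulated genes goes down after day 0 while those of the glucocorticoid response genes and the lung epithelium markers go up, and sh8 starts below WT at day -2 (0.95 against 2.65).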

How the data were processed

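RNA was measured on 8 Agilent one-colour arrays (WT and sh8 at 4 days, 1 array each). Per the labels, 1 µg of TRIzol-prepared RNA was labelled with Cy3; per the file headers, the authors read spots with Agilent Feature Extraction 11.0.1.1, giving processed intensities on no common scale. Deposited log2 values, made by the authors with steps not given in the sources used here, served as an alternative (column medians 6.39, correlation with the scanner values from 0.994 to 1.00 across probes). Their columns have a common scale and are not centred by gene.

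Of 44397 spots, 1377 controls were left out, then 46 of 39429 probes for outlier flags. RefSeq accessions gave 27207 probes a symbol and left 12176 without one. Levels are log2 processed intensity minus the array's 75th percentile. Probes well above background on at least 2 arrays were kept, and of several probes per gene the 1 with the highest mean. The number of arrays limits the precision.

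limma 3.58.1 (R 4.3.3; data.table package, version 1.17.8) fitted day (4 levels) and line over all 8 arrays, leaving 3 residual degrees of freedom, or 2 with the interaction of line and period. Adjusted p-values are Benjamini-Hochberg over all 26460 features, two-sided, with 0.05 as threshold. On simulated data with 200 changed genes per comparison, changes of 2 log2 units were recovered at 82% for sh8 versus WT, 94% for after versus before and 69% to 71% for single steps, and changes of 1 unit at 37%, 38% and 2% to 3%. Alternatives were quantile scaling, normexp with offset 50 (on median spot signals, since the files used hold no mean signal), the authors' values, no filter or a filter of 4 arrays, the mean of probes, slide blocks and leaving out each array.

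Members and lists were chosen with earlier results of these data known. Levels on all arrays are given for up to 3 genes per family with the lowest p after versus before, the brightest member and members against their family's direction, and from other lists up to 4 genes with the lowest p. Exceptions are said to be so. 1 gene of the list upstream of the members is left out of its counts and is not reported here.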

Additional observations from a re-analysis of the deposited data

Results flagged for a closer look

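Oas3 was lower after induction in WT (-0.45) and higher in sh8 (1.26), so that its change in sh8 exceeded that in WT by 1.71 on the log2 scale. The interaction test of this difference did not pass (limma, 1.71 ± 0.79 SE, adjusted p = 0.33). The sh8 level of day -2, -6.22, was not well above background.

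Iigp1 lay below WT on both days before induction (-1.35 and -0.73) and above it on both days after (0.12 and 0.39), a difference of 1.29. The interaction gave an adjusted p of 0.16 (limma, unadjusted p = 0.012), and the second probe of Iigp1 lay below WT on all 4 days.

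Irf7 lay below WT before induction (-1.06 and -0.37) and above it after (0.31 and 0.27), a difference of 1.00 with an adjusted p of 0.21 (limma, unadjusted p = 0.027). The cause was not tested for any of these genes.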

How the results depend on the processing

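No paired analysis was possible because the replicate numbers are all 1 and give no pairs; the day term of the model already sets sh8 against WT within each day. The limits are 1 array per line and day, slide and period that cannot be told apart, and few residual degrees of freedom. The fall after induction was called for 29 genes, 28 of them under each of the processing alternatives and 26 without each array in turn; with WT arrays alone, added after the data were seen, the count was 13 and with sh8 arrays alone 5. For sh8 versus WT, 12 of the 17 calls held under each processing alternative, and those of Oasl2, Gbp3, Gbp4, Ddx58 and Isg15 did not. That count ran from 0 to 7 when 1 array was left out, and it was 6 with slide, not day, as the block, 0 on slide 1 alone and 2 on slide 2 alone. For day +2 versus day 0 the count ran from 0 to 25 when 1 array was left out. For day 0 versus day -2, normexp gave 8 calls, where 3517 of 26460 features were called, and a filter of 4 arrays gave 1, where 560 features were. For the interaction normexp gave 1 (Iigp1), where 1279 of 26460 features were called. For sh8 versus WT, normexp also called Irf1 higher in sh8, where 4994 features were higher. For after versus before, the fit without WT at day +2 called Oasl1 higher, where 6304 features were called in either direction. Over all features, sh8 versus WT gave 4434 higher and 2723 lower, 2642 and 2570 with quantile scaling and 2729 and 2622 with the authors' values. After versus before gave 7083 higher and 2523 lower, 4369 and 3302 with quantile scaling and 4352 and 3362 with the authors' values. The all-feature medians of these comparisons were 0.13 and 0.17, and 0.02 and 0.04 with quantile scaling. Day +2 versus day 0 gave 2382 higher and 764 lower, 1213 and 740 with quantile scaling and 1204 and 759 with the authors' values.

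Some values changed sign, and the cause was not tested. On slide 2 alone sh8 minus WT was 0.071 for Oas3, 0.25 for Iigp1 and 0.29 for Irf7, and on slide 1 alone it was -0.45 for Gvin1. Leaving out 1 array gave a range of -0.080 (without either day +4 array) to 0.92 for Gvin1 and of -0.39 to 0.0705 (without either day -2 array) for Irf7. After minus before was -0.45 for Oas3 in WT alone, 0.10 for Irf1 with the mean of its probes, and in sh8 alone 0.30 for Iigp1, 0.058 for Psmb8 and 0.17 for Psmb9. With 1 array left out it ran from -0.22 (without sh8 at day -2) to 1.02 for Oas3, where it was -0.0029 without sh8 at day +4, from -0.37 to 0.027 (without WT at day -2) for Psmb8, and from -0.14 to 0.10 (without WT at day -2) for Psmb9, where it was 0.060 without WT at day +2 and 0.031 without WT at day +4. Day 0 minus day -2 was 0.34 for Ddx58 with the mean of its probes. With 1 array left out it ran from -0.78 (without sh8 at day -2) to 1.70 for Oas3, from -0.21 (the same array) to 1.76 for Gvin1 and from -0.032 (without sh8 at day 0) to 0.51 for Eif2ak2. Day +2 minus day 0 for Oas3 was -0.22 with quantile scaling and with the authors' values and -0.022 with normexp, and ran from -0.32 (without sh8 at day +2) to 0.35 with 1 array left out, being -0.083 without WT at day 0. For Oasl1 it ran from -0.063 (without sh8 at day +2) to 2.50. The interaction median ran from -0.091 (without either day -2 array) to 0.65, and it was -0.053 without either day +4 array.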

Other observations

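Before induction the gap between the lines was not the same on the 2 days measured. The gap of Usp18 went from -2.42 at day -2 to -1.18 at day 0, that of Ifit3b from -2.38 to -0.80, that of Ifi47 from -2.37 to -1.35 and that of Rsad2 from -1.82 to 0.12. In 36 of 37 genes sh8 lay below WT at day -2, and at day 0 it lay less far below or above. Over all features, the step from day -2 to day 0 was larger in sh8 than in WT for 47.3%. In Irf1 sh8 lay above WT on both days. Each day has 1 array per line, so these are values with no test, and the genes named here were chosen after their values were seen.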
